A study of Mus musculus with 8 samples.

Results

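MHC class I presentation and the immunoproteasome were followed through 10 genes: H2-K1, H2-D1, H2-T23, B2m, Tap1, Tap2, Tapbp, Psmb8, Psmb9 and Psmb10. The members were taken by gene symbol from a table of 37979 gene identifiers. All 10 were found, and they occupy 11 rows because Psmb9 is listed under 2 identifiers. All 11 rows were above 0 FPKM (a level scaled to transcript length and to the depth of the library) in each library, so no member was lost to a filter on low values.

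The data are bulk RNA-seq of muscle pericytes and SMCs (smooth muscle cells), with 4 libraries of each, generated to screen for muscle pericyte markers. Both cell types were sorted from digested hindlimb muscle of untreated Ai14+/-;SM22α-Cre+ mice of 3 to 4 months and of both sexes, in which Cre driven by the SM22α promoter switches on tdTomato permanently. Both gates took DAPI-low cells that were negative for CD31 and CD45 and positive for PDGFRβ. Within them, tdTomato-negative cells are labelled pericytes and tdTomato-positive cells are labelled SMCs, so a pericyte with SM22α promoter activity falls among the SMCs. Several sorts were combined for each sample, and the cDNA was amplified before sequencing. The authors call the 4 samples of each group biological replicates, and how many mice stand behind each is not given in the sources used here.

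Marker genes followed the labels only in part. Of 7 pericyte markers, 0 were higher in the pericyte libraries and 1, Rgs5, was higher in the SMC libraries, and the summed level of the list was 27.0 to 86.4 FPKM in pericytes against 65.9 to 286 FPKM in SMCs. None of 7 smooth muscle markers passed the test in either direction, although all 7 had a negative log2 fold change (median -1.34), and their summed level was 590 to 1892 FPKM in pericytes against 1775 to 5703 FPKM in SMCs. All 5 leukocyte markers were higher in the pericyte libraries, with a summed level of 3925 to 6845 FPKM against 233 to 312 FPKM, although the CD45 gate was meant to remove such cells. T cell markers summed to 1480 to 2338 FPKM against 22.1 to 49.5 FPKM (7 of 8 higher in pericytes), and B cell markers to 793 to 1977 FPKM against 9.53 to 30.8 FPKM (5 of 5 higher). Myeloid markers were at 913 to 1897 FPKM against 1062 to 1698 FPKM, with 0 of 6 higher in pericytes and 1 higher in SMCs. In the opposite direction, 5 of 7 endothelial markers were higher in SMCs (76.5 to 124 FPKM in pericytes, 265 to 900 FPKM in SMCs), as were 5 of 6 fibroblast markers (798 to 1642 FPKM against 3257 to 4486 FPKM). Dcn, the remaining fibroblast marker, was higher in pericytes and listed at 0 in all 4 SMC libraries, and no other marker of these lists was at 0 in a whole group. Most leukocyte, T cell, B cell, endothelial and fibroblast markers thus move with every difference between the groups reported here. The summed levels of the pericyte, smooth muscle and myeloid lists overlapped between the groups. The part of all these markers in the results was not tested. The words pericytes and SMCs below name the sort gates.

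MHC class I molecules display fragments of a cell's own proteins to CD8 T cells and to natural killer cells. A polymorphic heavy chain pairs with beta-2-microglobulin in the endoplasmic reticulum, where the TAP transporter delivers peptides from the cytosol and tapasin holds the empty molecule beside it. The peptides come largely from the proteasome. Lymphocytes, and other cells exposed to interferon gamma, replace the constitutive catalytic subunits of the proteasome with inducible ones, and the resulting immunoproteasome cuts more peptides that fit class I grooves. Nearly all nucleated cells carry class I molecules, and lymphoid cells carry much of them.

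Of the 10 members, 8 lie on chromosome 17 in the mouse MHC region (positions in NCBI Build 37, with gene models from GENCODE). Tapbp spans chr17:34052844-34066235, H2-K1 spans chr17:34132962-34137278, Psmb9 spans chr17:34318932-34324697, Tap1 spans chr17:34324498-34334170, Psmb8 spans chr17:34334666-34338399 and Tap2 spans chr17:34340472-34353266. H2-D1 spans chr17:35399675-35404444 and H2-T23 spans chr17:36166718-36169800. B2m spans chr2:121973422-121978819 and Psmb10 spans chr8:108459628-108462292. Tap1 and Psmb9 are read from opposite strands, and their gene models overlap by 200 bases at the first exons. Whether reads were assigned by strand is not given in the sources used here, so reads from those bases cannot be placed with either gene.

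Class I genes share a compact group of upstream elements: an NF-kappaB site next to an interferon-stimulated response element, and further in an S-X-Y module that binds the NLRC5 enhanceosome. The sequences before the start sites of the 3 members that make the classical class I molecule are shown because these elements lie in them. They are RefSeq promoter windows that were found by exact match in NCBI Build 37, written 5′ to 3′ on the strand of the gene. For H2-K1, chr17:34137293-34137472 on the minus strand holds the 180 bases before the RefSeq start. For B2m, chr2:121973242-121973421 on the plus strand holds 180 bases that end beside the first exon. For H2-D1, where GENCODE places an exon over this stretch, only chr17:35399868-35399896 on the plus strand is given. Capitals mark matches to the NF-kappaB consensus, the IRF core AANNGAAA, the half-site of the cAMP response element TGACG and the Y box ATTGG, each searched on both strands.
H2-K1: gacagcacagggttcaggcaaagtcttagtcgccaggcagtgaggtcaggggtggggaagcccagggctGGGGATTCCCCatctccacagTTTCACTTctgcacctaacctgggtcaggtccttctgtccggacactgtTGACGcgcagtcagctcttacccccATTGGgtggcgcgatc
H2-D1: GGGGATTCCCCatctcctcagTTTCACTT
B2m: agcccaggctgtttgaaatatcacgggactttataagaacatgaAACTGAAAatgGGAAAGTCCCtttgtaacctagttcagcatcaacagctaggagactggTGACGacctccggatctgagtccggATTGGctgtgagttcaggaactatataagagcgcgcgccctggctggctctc

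From the NF-kappaB match to the end of the IRF match, H2-K1 and H2-D1 differ at 1 of 29 bases, and the longest identical run in the 180 bases before their starts is 40 bases. In B2m the order of the IRF and NF-kappaB matches is turned around. RefSeq windows of 300 bases (250 before and 50 after the start) were found for 9 of the 10 members, all but Tap2. The NF-kappaB consensus, of 10 letters, was in 3 of the 9 members (H2-K1, H2-D1 and B2m) and in 8.46% of 32851 windows of all genes. The IRF core was in 4 of 9 (the same genes and H2-T23) and in 23.9% of all windows. The half-site TGACG was in 5 of 9 (H2-K1, H2-D1, B2m, Tap1 and Psmb9) and in 20.8% of all windows, but the windows of Tap1 and Psmb9 overlap and share their match. The Y box was in 7 of 9 members and in 37.4% of all windows. The gamma-activated site TTCNNNGAA was in Psmb8 alone among the 9 members and in 8.30% of all windows. These matches describe letters in a window, and binding was not measured.

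Members differed widely in level within each group. In pericytes the mean level fell in the order B2m (4127 FPKM), H2-D1 (3564), H2-K1 (1920), Psmb8 (508), Tapbp (289), H2-T23 (286), Psmb10 (109), Psmb9 (75.0), Tap2 (63.0) and Tap1 (59.1 FPKM). Neighbours whose libraries overlapped were B2m and H2-D1, Tapbp and H2-T23, and each neighbouring pair from Psmb10 down to Tap1. In SMCs B2m (2054 FPKM), H2-D1 (1731) and H2-K1 (719 FPKM) again stood at the top. Psmb8 was above both Tapbp and H2-T23 in every pericyte library. In SMCs its mean of 149 FPKM was below theirs of 223 and 191 FPKM, but its libraries overlapped with those of both genes, and it was above Tapbp in SMCs 1 and 2. FPKM is a value per length, but these levels can be set side by side only roughly. Pericytes 2 departed from the other pericyte libraries with transcript length, and heavy chains share sequence with other genes, as given below. Psmb9 is given by its main identifier, and its second identifier had means of 13.5 FPKM in pericytes and 3.52 FPKM in SMCs. In bulk samples, fewer cells of a type and less RNA per cell cannot be told apart.

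**Figure D1:**
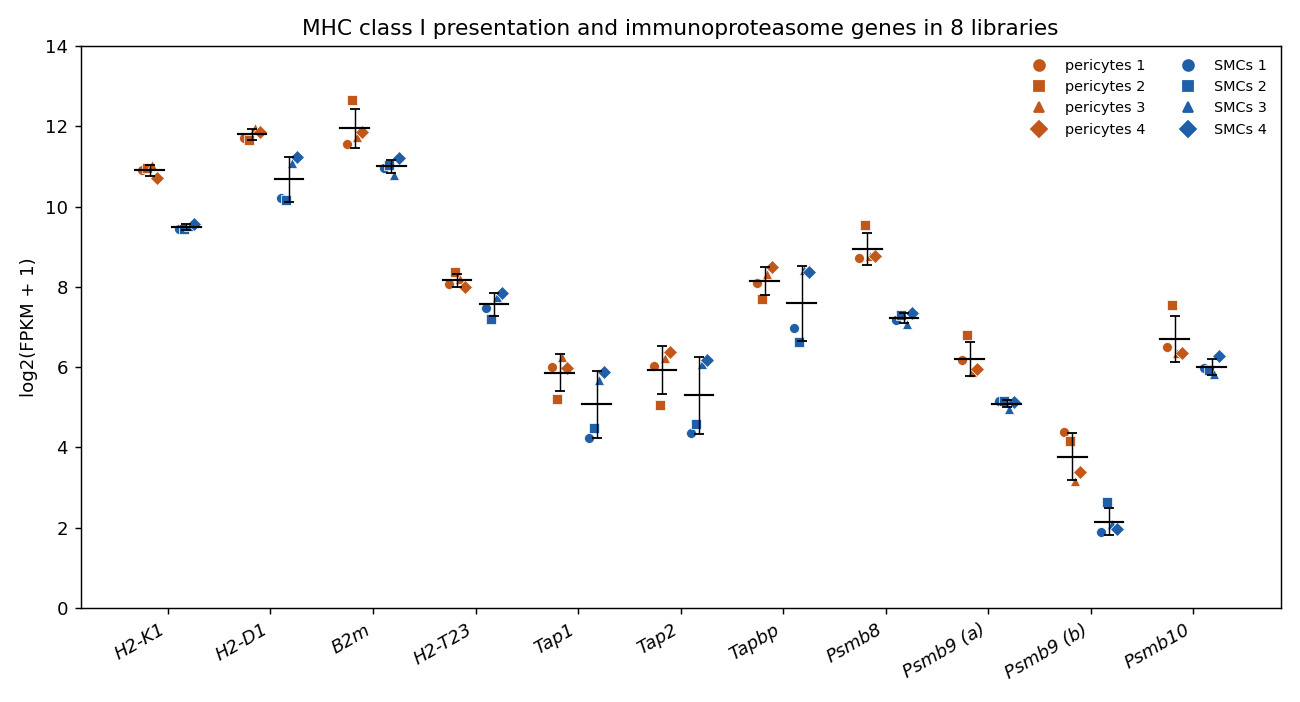
Level of each member as log2(FPKM + 1) in the 4 pericyte and 4 SMC libraries. Each point is a library, with its shape giving the replicate number, and bars give the mean and SD (n = 4). Psmb9 (a) and (b) are its 2 identifiers. Pericyte and SMC libraries do not overlap for H2-K1, H2-D1, B2m, H2-T23, Psmb8, Psmb9 and Psmb10, and overlap for Tap1, Tap2 and Tapbp.

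Of the 11 member rows, 7 passed the test as higher in pericytes and 0 as higher in SMCs, at a q value below 0.05 (limma on log2(FPKM + 1), with Benjamini-Hochberg adjustment over 27414 genes). They belong to 6 members: H2-K1, H2-D1, H2-T23, B2m, Psmb8 and Psmb9. When a library was left out, 4 to 7 rows were called, with 4 without pericytes 3, SMCs 1 or SMCs 2. Of all genes tested, 21.8% were called in either direction, 2917 higher in pericytes and 3060 higher in SMCs. With only the 13349 genes at 1 FPKM or more in at least 4 libraries, which all 11 rows pass, 7 rows were again called as higher in pericytes, against a background of 44.8% called in either direction (2947 higher in pericytes and 3040 higher in SMCs). Every pericyte library was above every SMC library in 8 of the 11 rows, which belong to 7 members, and in 12.1% of all genes tested. That 12.1% includes genes at low levels, and no such share is given for the 13349 genes of the separate fit. The median log2 fold change of the 11 rows was 0.95, against 0.02 for all genes tested. Of 12 genes used by every cell, 10 were above 0 in a library. All 10 had a positive log2 fold change (median 0.49), with 4 called higher in pericytes and 0 higher in SMCs. Every pericyte library was above every SMC library in 6 of the 10. The part of this shift in the member values was not tested. No member reached the log2 fold change of 2 that the study set for its marker screen: the highest was 1.72, for Psmb8. Rescaling each library to a fixed total (TPM) left 5 member rows called and a member median of 0.71. It also moved the share of all calls that were higher in pericytes from 48.8% to 36.2%.

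H2-K1 encodes a classical heavy chain. Its level was 1913, 2000, 2098 and 1669 FPKM in pericytes 1 to 4, and 696, 688, 732 and 759 FPKM in SMCs 1 to 4. All pericyte libraries stood far above all SMC libraries, with little spread in either group. The means were 1920 ± 184 FPKM and 719 ± 32.8 FPKM (SD, n = 4), a ratio of 2.67. The log2 fold change was 1.41 with a standard error of 0.08 (limma, q = 5.8e-05).

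H2-D1, the other classical heavy chain, was at 3360, 3252, 3957 and 3688 FPKM in pericytes and at 1188, 1146, 2169 and 2419 FPKM in SMCs. The groups did not overlap, but SMCs 3 and 4 stood well above SMCs 1 and 2. The log2 fold change was 1.12 ± 0.27 (SE, limma q = 0.0229). It was 1.501 between libraries 1 and 2 of each group and 0.74 between libraries 3 and 4. The call was lost in 8 of 19 other settings, with q values of 0.00329 to 0.259 over all of them, among them TPM and quantile scaling and the fits without pericytes 1, 3 or 4 and without SMCs 1 or 2.

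B2m, the light chain that all class I heavy chains need, had the highest mean level in both groups, but its libraries overlapped with those of H2-D1, which was above it in pericytes 1, 3 and 4 and in SMCs 3 and 4. The level of B2m was 3017, 6439, 3375 and 3678 FPKM in pericytes, and 1998, 2079, 1773 and 2368 FPKM in SMCs. Pericytes 2 stood far above the other pericyte libraries, and the groups did not overlap. The log2 fold change was 0.95 ± 0.24 (SE, limma q = 0.0282), 0.71 without pericytes 2 and 0.40 with quantile scaling. The call was lost in 7 of 19 settings (q from 0.00519 to 0.0801), among them those without pericytes 3 or 4 and without SMCs 1, 2 or 3.

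H2-T23 encodes Qa-1, a nonclassical class I molecule that presents leader peptides of other class I chains to natural killer cell receptors. It was at 270, 328, 294 and 255 FPKM in pericytes and at 176, 147, 214 and 228 FPKM in SMCs. The lowest pericyte library was close to the highest SMC library. The difference was the smallest among the called members, with a log2 fold change of 0.60 ± 0.15 (SE, limma q = 0.0317), or 0.36 with TPM. The call was lost in 11 of 19 settings (q from 0.0155 to 0.236), among them TPM, quantile scaling and a block on replicate number (limma q = 0.0962). It was also lost without pericytes 1, 2 or 3 and without SMCs 1 or 2.

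Heavy chains resemble each other in sequence, which bears on how reads are divided between them. Of the 31-base words in the longest coding transcript, 23.6% in H2-K1, 27.5% in H2-D1 and 31.2% in H2-T23 also occur in transcripts of other genes, against 0 in B2m. The levels of these heavy chains are uncertain to that extent, since how shared reads were assigned is not given in the sources used here.

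Tap1 and Tap2 encode the chains of the peptide transporter, and Tapbp encodes tapasin. Tap1 was at 63.0, 35.9, 75.8 and 61.6 FPKM in pericytes, and at 17.7, 21.5, 50.5 and 57.7 FPKM in SMCs. Tap2 was at 64.2, 32.1, 74.0 and 81.7 FPKM in pericytes, and at 19.5, 22.8, 66.7 and 71.1 FPKM in SMCs. Tapbp was at 274, 205, 316 and 361 FPKM in pericytes, and at 124, 97.5, 340 and 331 FPKM in SMCs. In all 3 genes the groups overlapped: pericytes 2 was the lowest pericyte library, and SMCs 3 and 4 lay among the pericyte libraries. None passed the test, with log2 fold changes of 0.79 ± 0.43 for Tap1 (limma q = 0.281), 0.62 ± 0.52 for Tap2 (q = 0.507) and 0.55 ± 0.46 for Tapbp (q = 0.501), each with its SE, and none passed in any of the 19 other settings. Without SMCs 1 these values were 0.51, 0.31 and 0.35, and without SMCs 2 they were 0.38 for Tap2 and 0.23 for Tapbp. The highest values with a library left out were 1.06 for Tap1, 0.92 for Tap2 and 0.83 for Tapbp. With TPM the log2 fold changes were 0.39 for Tap2 and 0.32 for Tapbp.

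The spread of these 3 genes lay mainly between SMC libraries. SMCs 3 and 4 were set against SMCs 1 and 2 as a ratio, taken back from the difference of mean log2(FPKM + 1). It was 2.68 for Tap1, 3.16 for Tap2 and 3.03 for Tapbp, and 1.96 for H2-D1. For Psmb8, Psmb9, B2m, H2-K1 and Psmb10 the same ratio was 0.98, 0.92, 1.01, 1.08 and 1.07, and H2-T23 lay between at 1.37. The log2 difference between pericytes and SMCs was 1.24 for Tap1, 1.07 for Tap2 and 1.10 for Tapbp in libraries 1 and 2, and 0.34, 0.17 and 0.01 in libraries 3 and 4. The labels give the same batch to all 8 libraries, so this division was seen in the values and is not a labelled batch. Among 13612 genes whose mean was 1 FPKM or more, 11.1% had such a ratio of at least 2. The share was 21.5% in the tercile of genes with the highest GC content of the transcript and 3.32% in the tercile with the lowest. Tap1, Tap2 and Tapbp had a GC content of 57.3%, 56.9% and 57.2%, but H2-K1 (56.4%), Psmb10 (56.5%) and Psmb8 (55.8%), whose SMC libraries stayed level, were in the highest tercile as well. The part of GC content in these values was not tested.

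Psmb8, Psmb9 and Psmb10 encode the inducible catalytic subunits of the immunoproteasome. Psmb8 was at 421, 742, 434 and 433 FPKM in pericytes and at 143, 157, 135 and 161 FPKM in SMCs. Each pericyte library was far above each SMC library, and pericytes 2 stood out from the rest of its group. The means were 508 ± 157 FPKM and 149 ± 12.0 FPKM (SD, n = 4), and the log2 fold change was 1.72 ± 0.19 (SE, limma q = 8.5e-04).

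Psmb9 was at 71.7, 110, 58.0 and 60.6 FPKM in pericytes and at 34.6, 34.5, 29.9 and 33.8 FPKM in SMCs under its main identifier (ENSMUSG00000024337). The second identifier (ENSMUSG00000092299) covers the same place, at chr17:34318933-34324709, and was at 19.9, 16.9, 7.91 and 9.48 FPKM in pericytes and at 2.70, 5.20, 3.29 and 2.88 FPKM in SMCs. Neither identifier showed an overlap between the groups. The log2 fold changes were 1.11 ± 0.20 (SE, limma q = 0.00688) and 1.63 ± 0.31 (q = 0.00942). The identifiers share 99.9% of the 31-base words of the first, so they are not separate evidence and the division of reads between them is uncertain.

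Psmb10 was at 88.9, 185, 81.1 and 81.2 FPKM in pericytes and at 61.9, 60.0, 55.9 and 76.4 FPKM in SMCs. The groups did not overlap, yet the lowest pericyte library was close to the highest SMC library. The log2 fold change was 0.69 ± 0.28 (SE) and did not pass the test (limma q = 0.138), and it was 0.40 without pericytes 2 and 0.45 with TPM. H2-K1, Psmb8 and both identifiers of Psmb9 kept their call in every other setting, including those that leave out a library.

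Most members fell into separate patterns over the replicates. Pearson correlations of log2(FPKM + 1) over 8 libraries, after removing the group means, were 0.97 for Psmb8 and B2m and 0.97 for Psmb8 and Psmb10. They were 0.98 for Tap1 and Tap2, 0.95 for Tap2 and Tapbp and 0.96 for Tapbp and H2-D1. Across these sets they were low or negative, as for Psmb9 and Tap2 at -0.63. H2-T23 belonged to neither set, with correlations of 0.77 with H2-D1, 0.65 with Tapbp, 0.50 with Psmb10, 0.38 with B2m and 0.68 with H2-K1. The points share library preparation, depth and transcript length, and the correlations are given as a description. Pericytes 2 carries much of the first set: it was 1.91 times the median of the other pericyte libraries for B2m, 1.71 times for Psmb8, 1.81 times for Psmb9 and 2.28 times for Psmb10. For Tap1, Tap2 and Tapbp it was 0.57, 0.43 and 0.65 times that median, and for H2-K1 1.05 times. The same ratio had a median of 1.68 over the tercile of all genes with the shortest transcripts (up to 2082 bases), 0.925 over the middle tercile and 0.634 over the tercile with the longest (above 3667 bases). The longest coding transcripts of B2m, Psmb10, Psmb9 and Psmb8 have 860, 1270, 1340 and 1628 bases, and those of Tapbp, Tap1 and Tap2 have 2894, 2953 and 3442 bases. H2-T23 and H2-K1, with 1472 and 1605 bases, are short as well, but pericytes 2 was only 1.21 and 1.05 times the median of the others for them. The part of transcript length in these values was not tested.

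**Figure D2:**
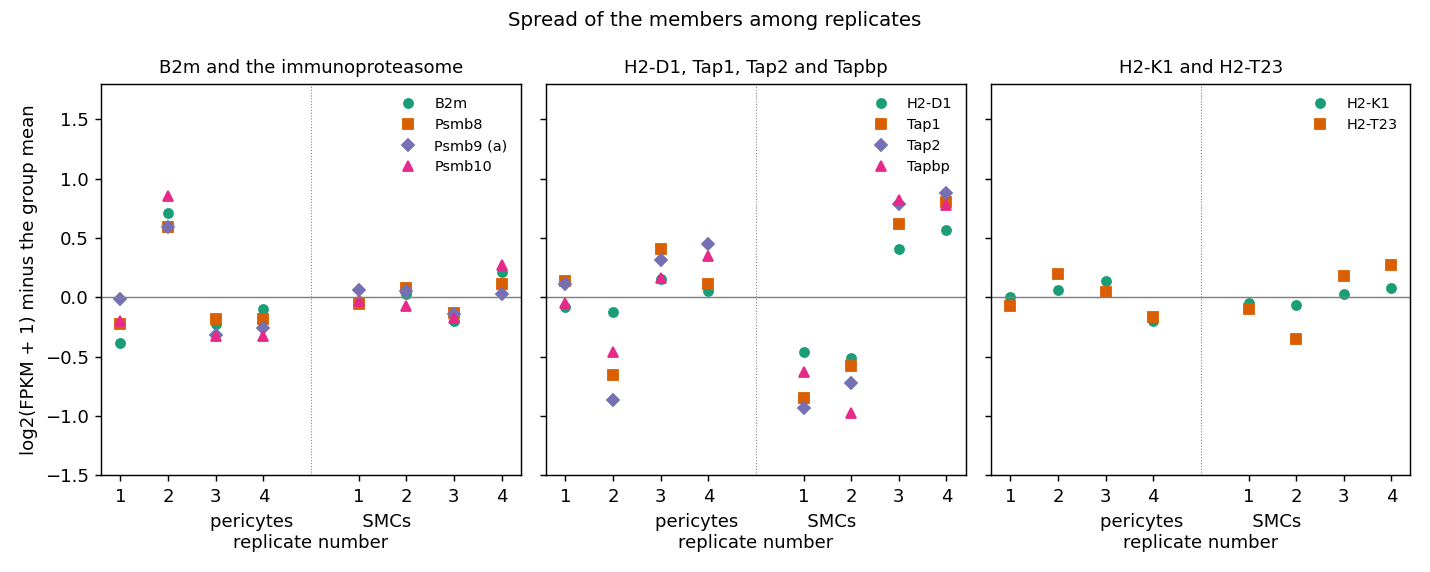
Deviation of each library from its group mean in log2(FPKM + 1), by replicate number, for 3 sets of members. Pericytes 2 is high for B2m and the immunoproteasome genes and low for Tap1, Tap2 and Tapbp, SMCs 3 and 4 are high for H2-D1, Tap1, Tap2 and Tapbp, and H2-K1 stays near its group mean. Psmb9 (a) is the main identifier.

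Whether the inducible subunits rose beyond their constitutive partners was asked within each library. Psmb5, Psmb6 and Psmb7 encode the constitutive catalytic subunits that Psmb8, Psmb9 and Psmb10 replace. None of them passed the test between the groups. Psmb5 was at 229, 500, 214 and 236 FPKM in pericytes and at 270, 223, 194 and 184 FPKM in SMCs (log2 fold change 0.36 ± 0.29, limma q = 0.491), a difference of 0.07 without pericytes 2 and 0.12 with TPM. Psmb6 was at 547, 1091, 475 and 539 FPKM against 700, 587, 512 and 511 FPKM (0.13 ± 0.27, q = 0.808), and Psmb7 had a log2 fold change of -0.03 ± 0.27 (q = 0.962).

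The ratio of Psmb8 to Psmb5 in FPKM was 1.84, 1.49, 2.03 and 1.83 in pericytes and 0.530, 0.703, 0.697 and 0.871 in SMCs. Psmb8 thus exceeded its partner in every pericyte library and stayed under it in every SMC library. The difference on the log2 scale was 1.37, or 2.58-fold (two-sided exact permutation test over libraries, p = 0.0286, n = 4 against 4). The ratio of Psmb9 to Psmb6 was 0.131, 0.1005, 0.122 and 0.112 in pericytes and 0.0494, 0.0587, 0.0584 and 0.0661 in SMCs. Psmb9 was below its partner in all 8 libraries, and the difference was 0.98, or 1.97-fold (exact permutation p = 0.0286). The ratio of Psmb10 to Psmb7 was 1.55, 1.69, 1.87 and 1.47 in pericytes and 0.865, 0.881, 1.04 and 1.23 in SMCs, a difference of 0.71 or 1.64-fold (exact permutation p = 0.0286).

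The groups did not overlap in any of the 3 ratios. Each p is the smallest that 4 against 4 libraries allow, and adjustment over the 3 pairs left it at 0.0286. Pericytes 2, which stood high for Psmb8, Psmb9 and Psmb10, was the lowest pericyte library in the first 2 ratios and lay among the others in the third, and Psmb5 and Psmb6 were themselves 2.18 and 2.02 times the median of the other pericyte libraries there. The differences held in libraries 1 and 2 (1.43, 1.07 and 0.88) and in libraries 3 and 4 (1.30, 0.89 and 0.55). For Psmb10 and Psmb7 the p rose to 0.0571 without pericytes 2 or pericytes 3, with differences of 0.70 and 0.65. With the mean of the structural core subunits in place of Psmb7, the difference for Psmb10 was 0.31 (exact permutation p = 0.0857). The leukocyte markers stood apart between the groups in the same libraries, and their part in the ratios was not tested.

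**Figure D3:**
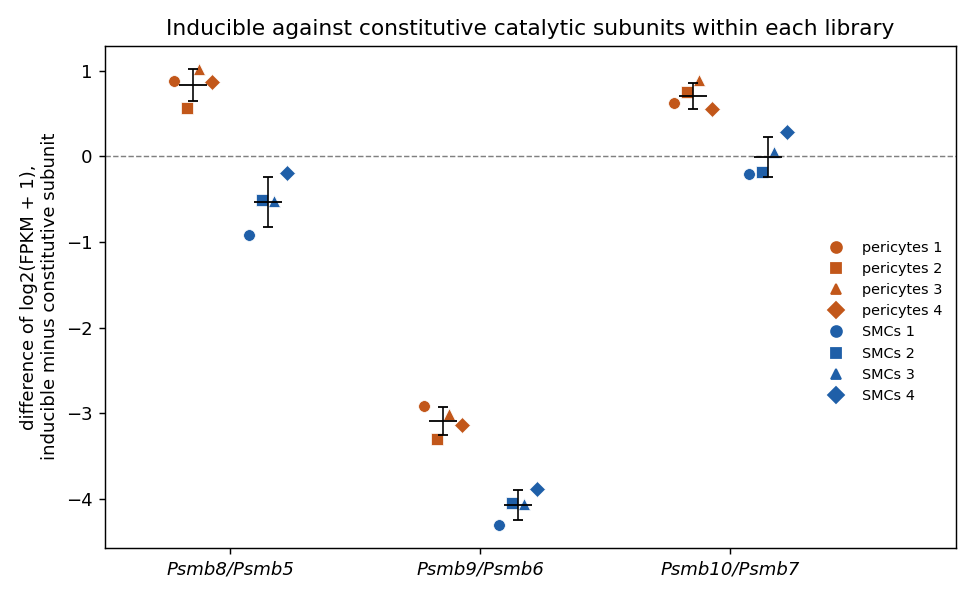
Difference in log2(FPKM + 1) between each inducible catalytic subunit and its constitutive partner within each library, with the mean and SD (n = 4). The dashed line marks equal levels. Pericyte libraries lie above SMC libraries for all 3 pairs, and above the line for Psmb8/Psmb5 and Psmb10/Psmb7.

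The rest of the proteasome was compared with lists of its subunits. None of 11 structural core subunits and none of 18 rows of the regulatory cap passed the test, with median log2 fold changes of 0.46 and 0.13. Of 10 activators and assembly factors, 3 were higher in pericytes. In the separate fit of the 13349 genes at 1 FPKM or more in at least 4 libraries, 2947 were called higher in pericytes. In either direction that fit called 44.8%. The 3 in 10 come from the fit of all genes tested and are not read as setting this list apart. Psme1 and Psme2 form the activator ring that interferon gamma induces together with the immunoproteasome. Psme1 was at 311, 573, 284 and 319 FPKM in pericytes and at 141, 134, 110 and 144 FPKM in SMCs (log2 fold change 1.43 ± 0.23, limma q = 0.00419). Psme2 was at 448, 991, 457 and 423 FPKM against 267, 283, 220 and 252 FPKM (1.09 ± 0.28, q = 0.0298), a call that was lost in 7 of 19 settings, among them those without pericytes 1 or 3 and without any SMC library. Psme3, a nuclear activator of the proteasome, was at 66.4, 81.1, 95.0 and 85.4 FPKM against 25.9, 28.1, 30.8 and 31.9 FPKM (1.45 ± 0.12, q = 2.5e-04). The groups did not overlap in any of the 3 genes. Psmb11 and Psma8, subunits restricted to thymus and testis, did not pass the test. A second identifier of Psmd14 was listed at 0 in all SMC libraries and in pericytes 2 and 4, and at 0.966 and 1.53 FPKM in pericytes 1 and 3.

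Of 10 other genes of peptide loading and trimming, 1 passed, and the same fit called 21.8% of all genes tested. The separate fit of genes at 1 FPKM or more in at least 4 libraries called 44.8%. The 1 in 10 is not read as setting this list apart. Tapbpl, which encodes the peptide editor TAPBPR, was at 28.4, 27.0, 42.7 and 37.3 FPKM in pericytes and at 10.33, 8.76, 22.003 and 19.6 FPKM in SMCs. Its SMC libraries 3 and 4 were 2.07 times libraries 1 and 2, by the difference of mean log2(FPKM + 1). The log2 fold change between the groups was 1.18 ± 0.32 (limma q = 0.0356). The call was lost in 8 of 19 settings, among them those without any pericyte library and without SMCs 1 or 2. The list had a median log2 fold change of 0.24.

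Class I and class I-like genes beyond the members went both ways. Of 27 tested, 7 passed as higher in pericytes and 4 as higher in SMCs, and the median log2 fold change was 0.15, or 0.44 over the 18 with a mean of 1 FPKM or more. All 11 called were among these 18. Of all genes tested, 21.8% were called, and 44.8% in the separate fit of genes at 1 FPKM or more in at least 4 libraries. Neither share is over genes with a mean of 1 FPKM or more in the fit that made these calls. Neither is thus a like background for 11 of 18, which are not read as setting this list apart. The difference was not tested. H2-Q7, a nonclassical Qa-2 gene, was at 361, 380, 454 and 344 FPKM in pericytes and at 61.7, 68.6, 53.3 and 71.3 FPKM in SMCs, which is a log2 fold change of 2.58 ± 0.12 (limma q = 2.6e-05). H2-T10 (22.8, 19.02, 19.8 and 10.12 FPKM against 2.29, 2.58, 2.88 and 2.59 FPKM) and H2-Q6 (275, 187, 430 and 280 FPKM against 55.8, 72.3, 76.9 and 89.9 FPKM) had log2 fold changes of 2.35 ± 0.23 and 1.93 ± 0.26 (q = 4.8e-04 and 0.00195). The groups were far apart in all 3. These genes are close copies of others: 40.6% of the 31-base words of H2-Q7, 37.2% of H2-Q6 and 59.8% of H2-T10 occur elsewhere, so their own levels are uncertain. H2-Q8, Cd1d1, H2-K2 and H2-M3 were also called higher in pericytes, with log2 fold changes of 1.82, 1.36, 0.90 and 0.80.

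The class I-like genes that were higher in SMCs were Mill2, Hfe, Fcgrt and Mr1. Fcgrt, the neonatal receptor for immunoglobulin G and albumin, was at 97.5, 120, 46.3 and 80.8 FPKM in pericytes and at 500, 375, 381 and 343 FPKM in SMCs. Hfe, a regulator of iron uptake, was at 11.6, 15.5, 3.87 and 9.96 FPKM against 56.7, 50.5, 39.9 and 51.2 FPKM. Mill2 was at 2.28, 1.70, 0.244 and 2.76 FPKM against 18.7, 17.7, 10.7 and 13.2 FPKM. Each SMC library stood above each pericyte library for these genes, with log2 fold changes of -2.27 ± 0.29 for Fcgrt, -2.29 ± 0.36 for Hfe and -2.63 ± 0.37 for Mill2 (limma q = 0.0015, 0.00388 and 0.00223). Mr1, which presents vitamin metabolites, had a log2 fold change of -1.46. H2-M1, H2-M10.6 and Mill1 were listed at 0 in all SMC libraries and in 3 of 4 pericyte libraries.

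Regulators of class I transcription did not all move one way. Of 16, 4 passed as higher in pericytes and 1 as higher in SMCs, with a median log2 fold change of 0.55. All 16 had a mean of 1 FPKM or more. The 5 called come from the fit of all genes tested, which called 21.8%. The separate fit of genes at 1 FPKM or more in at least 4 libraries called 44.8%, so 5 of 16 are not read as setting this list apart. Nlrc5, the transactivator of class I genes, was at 9.90, 9.30, 12.8 and 9.69 FPKM in pericytes and at 1.53, 1.84, 1.22 and 1.70 FPKM in SMCs. The groups were widely separated, with a log2 fold change of 2.15 ± 0.12 (limma q = 4.7e-05), above that of any member. Irf1, an interferon-induced activator of the IRF element, went the other way, at 309, 235, 301 and 332 FPKM in pericytes and 687, 752, 703 and 806 FPKM in SMCs. All SMC libraries were above all pericyte libraries, with a log2 fold change of -1.33 ± 0.12 (q = 3.0e-04). The calls of Nlrc5 and Irf1 were kept in all 19 settings.

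Irf2, a factor of the same family as Irf1, was at 14.6, 13.7, 18.2 and 17.7 FPKM in pericytes and at 4.35, 4.85, 6.95 and 10.7 FPKM in SMCs (log2 fold change 1.21 ± 0.25, limma q = 0.0133). Nfkb1, a subunit of NF-kappaB, was at 47.8, 53.8, 39.8 and 34.0 FPKM against 18.4, 22.7, 17.4 and 15.7 FPKM (1.19 ± 0.17, q = 0.00246). The groups did not overlap in either gene. Creb1 was called as well, with a log2 fold change of 0.65. Irf2 lost its call with TPM.

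Of 7 interferon receptor chains and their kinases, 5 were higher in pericytes, with a median log2 fold change of 0.97. The same fit called 21.8% of all genes tested in either direction. The separate fit of genes at 1 FPKM or more in at least 4 libraries called 44.8%. Ifngr1, the ligand-binding chain of the interferon gamma receptor, was at 621, 626, 836 and 653 FPKM in pericytes and at 302, 282, 169 and 175 FPKM in SMCs (log2 fold change 1.60 ± 0.23, limma q = 0.00245). Ifnar1, a chain of the type I interferon receptor, was at 100, 44.7, 87.5 and 113 FPKM against 25.1, 22.6, 26.8 and 36.0 FPKM (1.55 ± 0.30, q = 0.0096). The groups did not overlap in either receptor gene, and Ifnar1 lost its call with TPM. Jak1, the kinase both receptors use, was at 269, 105, 317 and 290 FPKM against 65.1, 88.3, 96.8 and 120 FPKM (1.31 ± 0.38, q = 0.0466). In Jak1 pericytes 2 lay below SMCs 4, and the call was lost in 12 of 19 settings. Among them were a block on replicate number and the fits without pericytes 1, 3 or 4 and without any single SMC library. Jak2 and Ifngr2 were called with log2 fold changes of 0.76 and 0.54.

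Of 2 interferon ligands tested, Ifng was called and Ifnb1 was not (q = 0.185). Ifng, the cytokine that induces the immunoproteasome, is made by T cells and natural killer cells. It was at 16.3, 19.9, 23.7 and 10.19 FPKM in pericytes and at 0.555, 0.553, 0.0415 and 0.160 FPKM in SMCs. The groups were far apart, with a log2 fold change of 3.77 ± 0.26 on the log2(FPKM + 1) scale (limma q = 1.1e-04), which understates low values. T cell markers were high in the same 4 libraries, with the summed levels given above, and their part in the level of Ifng was not tested.

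**Figure D4:**
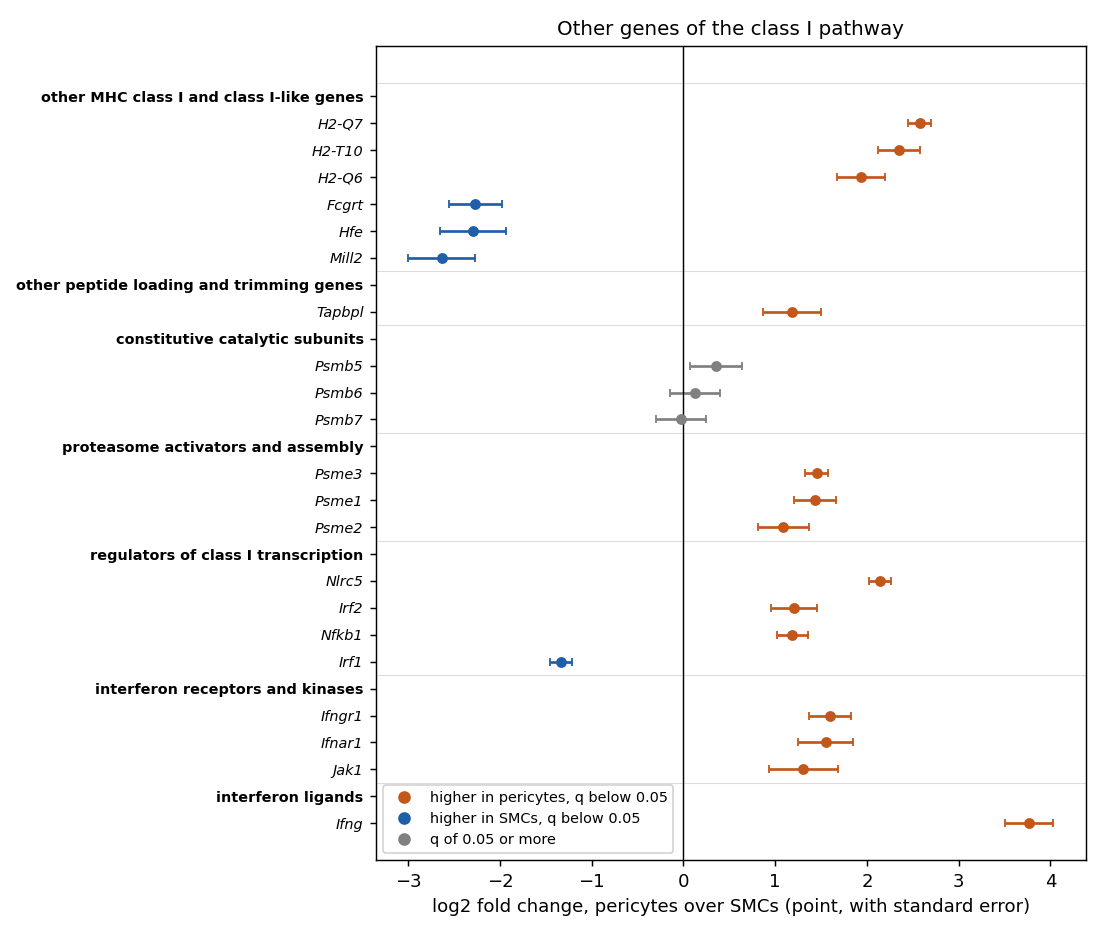
Log2 fold change of pericytes over SMCs in log2(FPKM + 1), with its standard error, for the named genes of each pathway list other than the members (n = 4 libraries per group). Points to the right were higher in pericytes. Irf1, Fcgrt, Hfe and Mill2 lie to the left, at -1.33, -2.27, -2.29 and -2.63, and the constitutive catalytic subunits lie near 0.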

How the data were processed

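The authors aligned the reads to NCBI Build 37 with Bowtie2 and TopHat after FastQC, with an Ensembl annotation, and deposited FPKM per gene and library. The program that computed FPKM and the use of strand are not given in the sources used here. The deposited FPKM values were log transformed here as log2(FPKM + 1). A linear model with moderated variances (limma 3.58.1, R 4.3.3) compared 4 pericyte with 4 SMC libraries over 27414 genes above 0 in at least 1 library. Another 10565 genes were at 0 throughout. Genes with a Benjamini-Hochberg q value below 0.05 were called. The test was checked on simulated data with known changes.

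Read counts behind FPKM are unknown. Relative depth, estimated from values under 0.3 FPKM, differed by at most 1.23 times between libraries, and 12713 to 13194 genes reached 1 FPKM. Ubb was listed at 0 in every library, so a value of 0 may be a failed estimate.

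The ratio of inducible to constitutive subunits was tested by a two-sided exact permutation test of the difference in log2(FPKM + 1) over 70 splits. The members and lists were chosen with earlier results of these data known. The rule named all members, the constitutive subunits, Nlrc5, Irf1, Psme1 and Psme2. It also named up to 3 called genes in each direction per list and genes listed at 0 in 1 whole group. H2-Q8, Cd1d1, H2-K2, H2-M3, Mr1, Creb1, Jak2 and Ifngr2 were named after their values were seen. Some genes that the rule named are not reported here. Positions came from GENCODE vM1 for 37195 of 37979 identifiers, and promoters came from RefSeq (GRCm38.p6 windows, placed in NCBI Build 37 by exact match). Figures were made in Python 3.11.15.

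Alternatives to this fit used 0.1 as pseudocount, only genes at 1 FPKM in 4 libraries, all listed genes, TPM, quantile and median-ratio scaling, a replicate block, replicates 1 and 2 against 3 and 4 as a covariate, an intensity trend, leaving out genes at 0 in a whole group, and each library left out. Removing a trend on exon length and summing the 2 Psmb9 identifiers were chosen after seeing the data.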

Additional observations from a re-analysis of the deposited data

Results flagged for a closer look

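Within the groups of 4 libraries, the gap between the most extreme library and its neighbour was set against the whole range on the log2(FPKM + 1) scale. It was above the critical value of Dixon's test in 9 of 70 groups whose libraries were all above 0, where chance gives about 1 in 20. In 7 of these the library was pericytes 2. It was high for Psmb8 (0.944), Psmb10 (0.890), Psmb5 (0.883), Psmb6 (0.830), Psme1 (0.838) and Psme2 (0.909), and low for Jak1 (0.851). Pericytes 2 also had the highest sum of FPKM over all genes, 1190435 against 656405 to 782014 in the other libraries. SMCs 3 was low for Psmb9 under its main identifier (0.844) and pericytes 3 was high for Ifngr1 (0.831). H2-M1, H2-M10.6 and Mill1 each had 1 pericyte library above 0 (pericytes 4 for H2-M1, pericytes 2 for H2-M10.6 and Mill1), which gives a value of 1 in each by construction.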

How the results depend on the processing

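Of the 11 member rows, 7 were called as reported, 4 with all listed genes tested, and 4 to 7 when a library was left out (4 without pericytes 3, SMCs 1 or SMCs 2). Psmb10 was called only with the exon length trend removed, which gave 8 called rows. The replicate numbers alone were not taken as a pairing: same-numbered libraries correlated at 0.0794 to 0.474 over 4 pairs, and 5 of 8 libraries correlated best with their own number. Libraries 1 and 2, and likewise 3 and 4, went together across the groups: their other pairs correlated at 0.209 to 0.538, and all 8 remaining pairs at -0.451 to -0.102. With the replicate block, 6 member rows were called, H2-T23 and Jak1 lost their call, and the ratios stayed at 1.37, 0.98 and 0.71 with an exact sign-flip p of 0.125, the smallest that 4 pairs allow. Leaving out a library gave 1.24 to 1.48 for Psmb8/Psmb5, 0.90 to 1.05 for Psmb9/Psmb6 and 0.65 to 0.81 for Psmb10/Psmb7. With the structural core in place of the partner, Psmb10 gave 0.31. No called gene turned. Uncalled Psmb6 turned to -0.11 with TPM and -0.13 with quantile scaling, and ranged from -0.14 to 0.26 when a library was left out, as Psmb7 did from -0.30 to 0.14. The causes were not tested. Among the named genes, calls were lost in 55 combinations of gene and setting and kept or unchanged in 545. Unknown read counts limit the precision of low values.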

Other observations

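Among the 5 genes whose spread over the 8 libraries, after removing the group means, was most like the mean of the members were Gm16587 (Pearson's r = 0.995), Phactr1 (0.990), Plekho1 (0.982) and Nkiras2 (0.981), out of 13446 genes compared. They are not genes of antigen presentation by name. Gm16587 was at 0.944, 1.17, 4.23 and 6.29 FPKM in SMCs 1 to 4, and Plekho1 at 5.82, 8.53, 19.1 and 27.1 FPKM. Like Tap1, Tap2 and Tapbp, these 4 were higher in SMCs 3 and 4 than in SMCs 1 and 2. With so many genes and 8 libraries, high values of r are given as a description only.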
